A study of Mus musculus with 18 samples.

Results

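The EGFR family consists of receptor tyrosine kinases at the cell surface that are switched on by small peptide growth factors. Transcripts of 10 of its genes were followed here in mouse liver and in a mouse hepatocyte line. They were taken by gene symbol, and all 10 were present among the 16533 genes of the liver table and the 15579 genes of the AML12 table. The receptors were Egfr, Erbb2 and Erbb3. The ligands that bind EGFR were Areg (amphiregulin), Ereg (epiregulin), Hbegf (heparin-binding EGF-like growth factor), Tgfa (transforming growth factor alpha) and Btc (betacellulin). The inhibitors were Lrig1, a membrane protein that promotes loss of the receptors, and Errfi1 (MIG6), a cytosolic protein that blocks the kinase domain of EGFR.

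The livers came from 6 male db/db mice in the fed state. These mice lack a working leptin receptor, and so did the controls. For 9 weeks, 3 mice had recombinant mouse serum albumin (rMSA, 1.5 mg per g) injected into a vein 3 times, 3 weeks apart, and 3 mice received the same volume of saline. AML12 is an immortalised mouse hepatocyte line, grown in a medium that holds insulin and dexamethasone. Its cells were starved overnight in serum-free medium and then treated for 24 h with 600 µM rMSA and 10 nM insulin together, with 600 µM rMSA, with 10 nM insulin, or with vehicle (3 libraries each). The statistics section of the study says in general that experiments were repeated, but whether the 3 libraries of an AML12 group came from separate cultures is not given there, so p-values there measure the spread between libraries, which may be technical. AML12 cells were derived from a mouse that carried a human TGFA transgene, although the labels give the genotype as WT. Whether reads of the transgene were counted under mouse Tgfa was not tested.

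In normal liver EGFR is among the most abundant growth factor receptors of hepatocytes and takes part in regeneration after tissue loss. Its ligands are made as membrane-bound precursors and are released by ADAM metalloproteases. ERBB3 has almost no kinase activity of its own and signals by pairing with other family members, often with ERBB2, which has no known ligand. Signalling from these receptors runs through RAS and ERK and through PI3K and AKT. The study examined EGFR phosphorylation under rMSA on blots, and the comparisons here concern only the transcripts of the family, not protein or phosphorylation.

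Of the 5 ligand genes, 3 lie near each other on mouse chromosome 5 (GRCm38). Ereg lies at chr5:91074617-91093649, Areg at chr5:91139599-91148432 and Btc at chr5:91357261-91402994, on the other strand. The gap is 45.9 kb between Ereg and Areg and 208.8 kb between Areg and Btc. Promoter windows of 250 bases before and 50 bases after an annotated start were given in RefSeq (GRCm38.p6) for 7 of the 10 genes, in 8 windows. The palindrome TGACGTCA, the full cyclic AMP response element, reads the same on both strands and was found in 588 of 32851 such windows (1.79%). Of the 7 genes, 2 held it, Areg and 1 of the 2 windows of Errfi1, and both sequences are shown because Areg is the ligand with the smallest adjusted p in AML12 cells and Errfi1 the most abundant of the 10 transcripts in liver. The element is in capitals. A match of letters is a description and not evidence of binding.
Areg (chr5:91139349-91139648, plus strand, element starting 61 bases before the start): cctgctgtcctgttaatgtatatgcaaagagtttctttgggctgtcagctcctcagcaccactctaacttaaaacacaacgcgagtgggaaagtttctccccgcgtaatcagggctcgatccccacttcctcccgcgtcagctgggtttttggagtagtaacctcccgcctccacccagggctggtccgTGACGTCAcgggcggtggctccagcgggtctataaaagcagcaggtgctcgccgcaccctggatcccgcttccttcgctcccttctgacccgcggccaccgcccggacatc
Errfi1 (chr4:150854820-150855119, plus strand, element starting 51 bases before the start): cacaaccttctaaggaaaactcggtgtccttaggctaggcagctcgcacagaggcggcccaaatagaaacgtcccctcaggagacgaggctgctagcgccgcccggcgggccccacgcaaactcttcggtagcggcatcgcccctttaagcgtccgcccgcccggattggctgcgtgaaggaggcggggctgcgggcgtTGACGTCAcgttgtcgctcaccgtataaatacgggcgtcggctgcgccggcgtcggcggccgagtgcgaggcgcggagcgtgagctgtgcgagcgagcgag
The letters TGACTCA, an AP-1 site, which were in 5.20% of all windows on either strand, were in none of these 8.

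Levels are given as TPM, a share of all transcripts corrected for transcript length and scaled to the same total in each library, so that levels can be set side by side between genes. Read depth is unknown because TPM keeps no counts. Differences were tested with limma on log2(TPM + 1) over every gene that averaged 1 TPM or more, 11398 in liver and 10826 in AML12 cells, with Benjamini-Hochberg adjustment. Genes are said to rise or fall at an adjusted p under 0.05. Fold changes are on the log2(TPM + 1) scale, which understates the change of genes with low levels. In these bulk samples fewer cells of a type and less RNA per cell cannot be told apart.

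Some facts of the libraries bear on the values below. Insulin libraries 1 and 2 of the AML12 experiment stood apart from insulin library 3 and the other groups in their share of ribosomal protein transcripts. Ribosomal protein genes took 33.6% and 36.3% of their TPM, against 26.9% in insulin library 3 and 22.2 to 28.1% in the libraries of the other groups. Which of the insulin libraries are typical of the treatment cannot be told from these values. All 10 hepatocyte markers had group means above 1 TPM in the livers. In AML12 cells 6 of 9 hepatocyte markers in the table had a group mean of at least 1 TPM, with summed levels of 794 to 1187 TPM, against 71281 to 91779 TPM in livers. Cps1, a urea cycle enzyme that defines hepatocytes, was listed at 0 in the AML12 groups other than insulin. Of 5 cholangiocyte markers in the AML12 table, 4 had group means of at least 1 TPM, and their summed level was 1244 to 2194 TPM, against 27.4 to 42.5 TPM in livers.

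In the liver, rMSA lowered Egfr transcripts and raised those of the ligand Tgfa. Errfi1 also fell, although the call rested on single mice. The ligand Btc was higher with rMSA as well, but it entered the test only through the rMSA livers. Of the 10 genes, 6 had a mean of at least 1 TPM and were tested. With Btc included 2 rose and 2 fell, while 30.2% of all tested genes passed the test, 21.8% upward and 8.38% downward. Over all genes 2487 rose and 955 fell, or 1642 and 1496 after each library was centred on its median.

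Egfr (gene ID 13649, chr11:16752203-16913907) had 25.8, 19.3 and 16.6 TPM in rMSA livers, against 48.9, 41.9 and 40.8 TPM in saline livers. Each rMSA liver was below each saline liver. The mean was 20.5 ± 4.71 TPM with rMSA and 43.9 ± 4.42 TPM with saline (SD, n = 3 each). This was a log2 fold change of -1.08 (SE 0.16, adjusted p = 0.00194 by limma). It was past the threshold in each of the 17 other settings of the analysis, with log2 fold changes from -1.24 to -0.94. Its abundance set against the other 2 receptors changed as well. Egfr made up 46.4 to 58.0% of the summed TPM of Egfr, Erbb2 and Erbb3 in rMSA livers and 71.8 to 73.7% in saline livers.

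The other receptors did not pass the test in liver. Erbb3 (gene ID 13867, chr10:128567523-128589635) had 18.04, 15.5 and 18.6 TPM in rMSA livers, against 16.6, 15.8 and 14.2 TPM in saline livers. The groups overlapped, with a log2 fold change of 0.15 (95% confidence interval -0.13 to 0.44, adjusted p = 0.407 by limma). Erbb2 (gene ID 13866, chr11:98412484-98437716) was under the 1 TPM limit and was not tested, with 0.63, 0.88 and 0.60 TPM in rMSA livers and 0.87, 0.64 and 0.63 TPM in saline livers. Its exons overlap those of Mien1 on the other strand, a gene with a mean of 96.4 TPM in the livers. The sources used here do not give the strand setting of the counting, so Erbb2 values are uncertain.

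**Figure D1:**
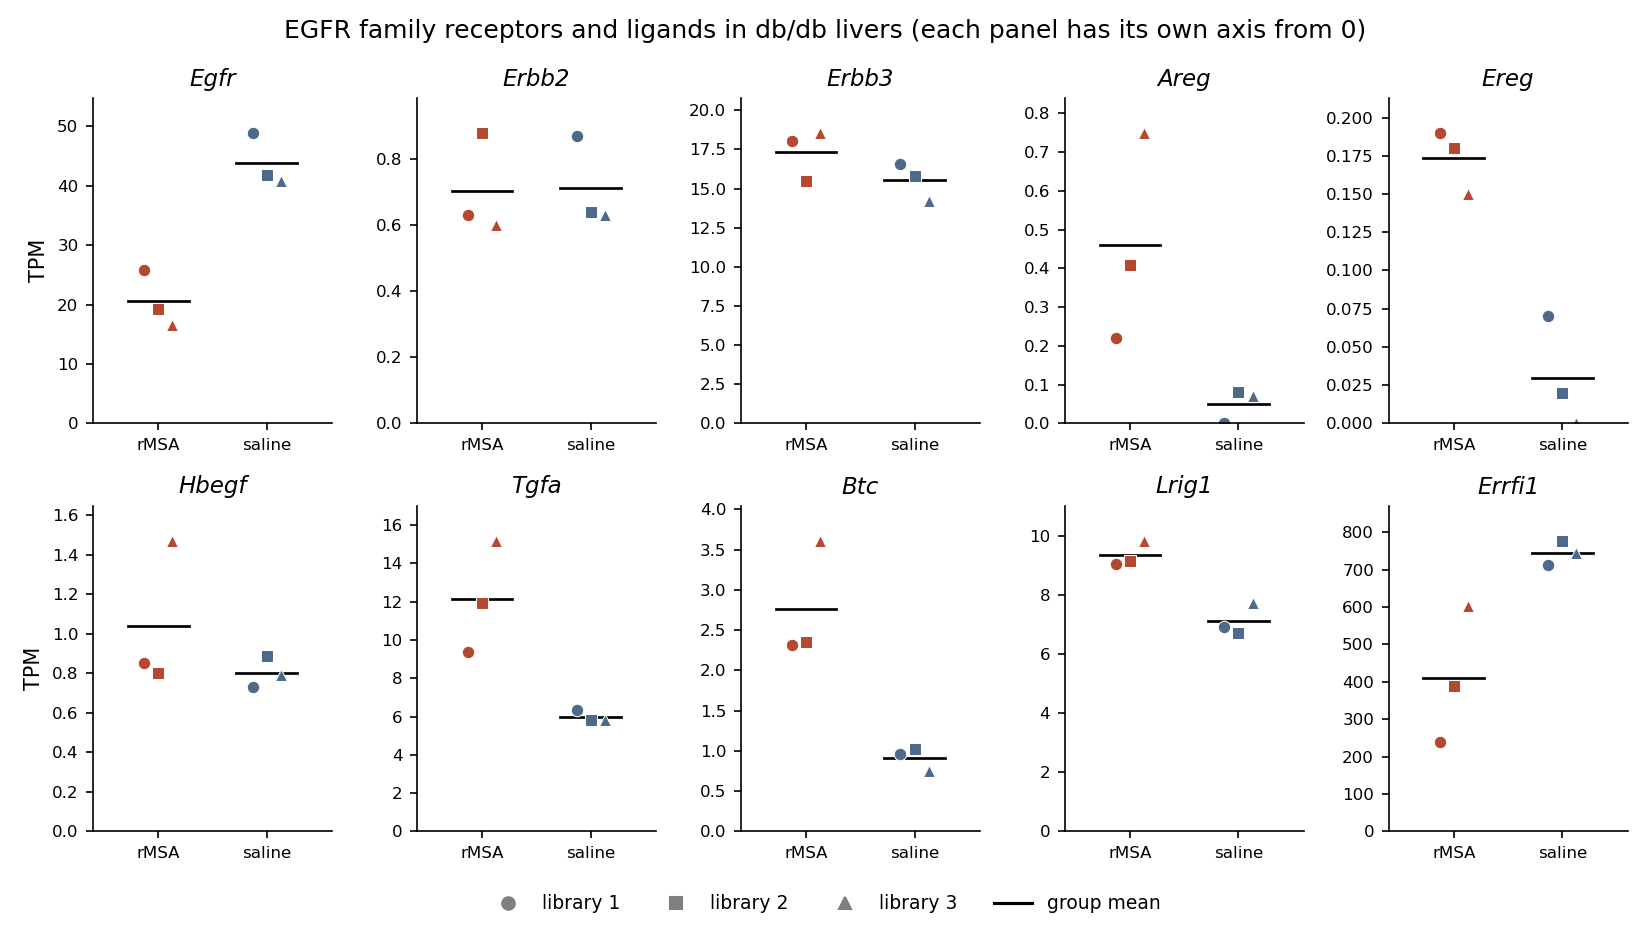
TPM of the 10 genes in db/db livers after rMSA (left in each panel) or saline (right), with 1 point per liver and a line at the group mean, each panel on its own axis starting at 0. Egfr was lower in each rMSA liver (16.6 to 25.8 TPM) than in any saline liver (40.8 to 48.9 TPM), and Tgfa and Btc were higher.

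Tgfa was the most abundant EGFR ligand transcript of the livers. Tgfa (gene ID 21802, chr6:86195038-86275744) had 9.38, 11.9 and 15.2 TPM in rMSA livers, against 6.36, 5.81 and 5.81 TPM in saline livers. The rMSA livers were all higher, by a log2 fold change of 0.89 (SE 0.18, adjusted p = 0.00635 by limma). Btc (gene ID 12223) had 2.32, 2.35 and 3.61 TPM in rMSA livers, against 0.96, 1.02 and 0.75 TPM in saline livers. This was a log2 fold change of 0.96 (SE 0.18, adjusted p = 0.00494 by limma). Btc reached the 1 TPM limit only through the rMSA livers, and without that limit its adjusted p was 0.00746 by limma. With 1 TPM added before the log, neither log2 fold change reached 1, whereas the ratio of mean TPM was 2.03 for Tgfa and 3.03 for Btc.

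The remaining ligands were near the lower end of the measured range in liver. Areg had 0.22, 0.41 and 0.75 TPM in rMSA livers. In saline livers it was listed at 0 in one mouse and had 0.08 and 0.07 TPM in the others. Ereg had 0.19, 0.18 and 0.15 TPM in rMSA livers, and in saline livers it had 0.07 and 0.02 TPM and was listed at 0 in one. All rMSA livers were above all saline livers for both genes, at levels where TPM rests on few reads, and neither entered the main test. Without the limit on low levels their adjusted p was 0.0359 for Areg and 0.0240 for Ereg by limma, which is not read as a call at such levels. Hbegf had 0.85, 0.80 and 1.47 TPM in rMSA livers and 0.73, 0.89 and 0.79 TPM in saline livers, which overlapped. The 5 ligands together came to 12.96 to 21.2 TPM in rMSA livers and 7.42 to 8.12 TPM in saline livers, and Tgfa made up 71.7 to 76.1% of that sum with rMSA and 74.3 to 78.3% with saline.

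Among the inhibitors, Errfi1 (gene ID 74155, chr4:150853796-150868889) was far more abundant in liver than any receptor or ligand. It had 238, 390 and 602 TPM in rMSA livers, against 711, 777 and 743 TPM in saline livers. The rMSA livers differed among themselves by more than the saline livers, yet none reached the saline range. The log2 fold change was -0.96 (SE 0.28, adjusted p = 0.0342 by limma). The call was lost without saline liver 1 (adjusted p = 0.0674), saline liver 2 (0.0961) or rMSA liver 2 (0.0748), and without the limit on low levels (0.0585). Lrig1 (gene ID 16206, chr6:94604529-94700298) had 9.05, 9.16 and 9.83 TPM in rMSA livers, against 6.91, 6.71 and 7.72 TPM in saline livers. Its groups did not overlap, but its log2 fold change of 0.35 did not pass (SE 0.13, adjusted p = 0.0667 by limma), and 45.6% of all tested genes had groups that did not overlap. The exons of Lrig1 overlap those of Slc25a26 on the other strand, which had 11.02 ± 1.59 TPM in rMSA livers and 8.01 ± 0.89 TPM in saline livers (SD, n = 3 each).

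Markers of other cell types moved in the same livers, where 21.8% of all tested genes rose and 8.38% fell. Of 7 markers of stellate cells and fibroblasts, 5 rose and none fell, and their summed level was 254 to 336 TPM in rMSA livers and 112 to 234 TPM in saline livers. Among the cholangiocyte markers, Krt7 and Epcam reached the 1 TPM limit only through the rMSA livers, so no count is given. Krt7 averaged 2.02 TPM with rMSA and 0.99 TPM with saline, and Epcam 2.71 TPM with rMSA and 0.91 TPM with saline. Krt19 averaged 3.91 TPM with rMSA and 1.71 TPM with saline. The sum of the list, carried by Tstd1, was 27.4 to 42.5 TPM with rMSA and 29.9 to 40.0 TPM with saline. Of 7 macrophage markers 1 rose and 2 fell. Marco averaged 3.20 TPM with rMSA and 37.6 TPM with saline, and the sum was 174 to 264 TPM with rMSA and 173 to 316 TPM with saline. Of 7 endothelial markers 1 rose, with sums of 170 to 171 TPM with rMSA and 129 to 176 TPM with saline. Lymphocyte or neutrophil markers had sums of 13.1 to 17.5 TPM with rMSA and 11.5 to 20.01 TPM with saline. No count is given for them, because Cd79a and Retnlg reached the 1 TPM limit only through the rMSA livers and Cd3e only through the saline livers. Cd79a averaged 1.54 TPM with rMSA and 0.52 TPM with saline, Retnlg 2.83 and 0.97 TPM, and Cd3e 0.54 and 1.51 TPM. Of 10 hepatocyte markers 2 rose and 4 fell, with sums of 86954 to 91779 TPM in rMSA livers and 71281 to 86296 TPM in saline livers. Tat averaged 618 TPM with rMSA and 4767 TPM with saline, Cps1 503 and 1438 TPM, Hnf4a 229 and 500 TPM, and Cyp2e1 3534 and 7877 TPM. Apoa1 averaged 9468 TPM with rMSA and 1944 TPM with saline, and Ttr 11726 and 7227 TPM. No defining marker of these lists was listed at 0 in a whole group, and the part of these cell types in the changes of Egfr, Tgfa, Btc and Errfi1 was not tested.

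In AML12 cells all 10 genes were above the 1 TPM limit, and several stood at other levels than in liver. Without rMSA and insulin, Erbb2 was at 23.5 ± 0.65 TPM (0.71 ± 0.14 TPM in saline livers), Areg at 13.2 ± 1.28 TPM (0.05 ± 0.04 TPM) and Hbegf at 19.2 ± 1.27 TPM (0.80 ± 0.08 TPM, SD, n = 3 each). Errfi1 was at 12.1 ± 1.71 TPM in AML12 vehicle cells and 744 ± 32.8 TPM in saline livers, and Erbb3 at 1.38 ± 0.16 TPM and 15.5 ± 1.22 TPM. The tables of the experiments are separate, so no test was made between them.

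rMSA alone raised 2 ligands, 1 receptor and 1 inhibitor in AML12 cells and lowered none of the 10. The ligands were Areg and Ereg, the receptor Erbb3 and the inhibitor Lrig1. The 4 of 10 compare with 7.80% of all tested genes that passed in this comparison (5.90% upward), 639 of which rose and 205 fell (724 and 623 after quantile normalization). Areg passed in each of the 12 settings that left out 1 library, Erbb3 in 8, Lrig1 in 7 and Ereg in 2, those without insulin library 2 or 3, although the fold changes moved little (0.72 to 0.83 for Erbb3, 1.34 to 1.49 for Lrig1 and 1.28 to 1.58 for Ereg on the log2 scale). Erbb3 was lost without vehicle library 2 or 3 or rMSA library 1 or 2, and Lrig1 without those or vehicle library 1. The adjusted p of Ereg reached 0.165 by limma.

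Areg (gene ID 11839) had 29.8, 34.2 and 25.1 TPM in rMSA cells, against 14.1, 13.7 and 11.7 TPM in vehicle cells. Each rMSA library was above each vehicle library, with a log2 fold change of 1.11 (SE 0.16, adjusted p = 0.00178 by limma). Over all alternative settings the adjusted p of Areg stayed at or below 0.0122 here. Ereg (gene ID 13874) had 10.9, 10.5 and 6.93 TPM in rMSA cells, against 3.30, 2.87 and 2.64 TPM in vehicle cells. Its log2 fold change was 1.39 (SE 0.37, adjusted p = 0.0440 by limma, and 0.0653 with the replicate number as a block). Its groups did not overlap.

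Erbb3 had 3.37, 3.06 and 2.78 TPM in rMSA cells, against 1.52, 1.41 and 1.21 TPM in vehicle cells. All rMSA libraries were higher, by a log2 fold change of 0.77 (SE 0.16, adjusted p = 0.0131 by limma). Lrig1 had 44.1, 42.5 and 35.8 TPM in rMSA cells, against 15.8, 14.8 and 13.9 TPM in vehicle cells. The log2 fold change was 1.40 (SE 0.30, adjusted p = 0.0158 by limma), and without 1 library at a time the adjusted p reached 0.0714. Slc25a26, whose exons overlap those of Lrig1, had 14.1 ± 1.37 TPM in rMSA cells and 11.9 ± 0.80 TPM in vehicle cells (SD, n = 3 each, log2 fold change 0.23, adjusted p = 0.305 by limma).

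The other 6 genes did not pass under rMSA alone. Egfr had 43.1, 38.6 and 31.4 TPM in rMSA cells, against 47.5, 41.2 and 34.0 TPM in vehicle cells, and the groups overlapped. The log2 fold change was -0.11, with a 95% confidence interval from -0.78 to 0.55 (adjusted p = 0.956 by limma). Between libraries of the same number Egfr was lower with rMSA in 3 of 3, and with the number as a block its adjusted p was 0.954 by limma. The liver estimate of -1.08 lies outside this interval, but the experiments were not tested against each other. Erbb2 had 25.3, 23.1 and 23.7 TPM with rMSA and 24.0, 22.8 and 23.7 TPM with vehicle, a log2 fold change of 0.03 (95% confidence interval -0.26 to 0.32). Tgfa, whose transcripts rose in liver, had 33.0, 27.4 and 22.2 TPM in rMSA cells and 29.4, 26.9 and 21.6 TPM in vehicle cells (log2 fold change 0.07, 95% confidence interval -0.70 to 0.85). Btc had 5.27, 4.48 and 4.31 TPM in rMSA cells, against 3.83, 3.00 and 3.00 TPM in vehicle cells. Those groups did not overlap, as for 39.6% of all tested genes, and the log2 fold change of 0.41 did not pass (adjusted p = 0.191 by limma). Hbegf had 19.9, 19.1 and 16.8 TPM with rMSA and 19.9, 17.8 and 20.04 TPM with vehicle, and Errfi1 had 12.2, 10.7 and 7.69 TPM with rMSA and 13.3, 12.7 and 10.1 TPM with vehicle. Both overlapped, with log2 fold changes of -0.05 for Hbegf and -0.23 for Errfi1. Errfi1 was likewise lower in 3 of 3 libraries of the same number (adjusted p = 0.909 by limma with the block).

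**Figure D2:**
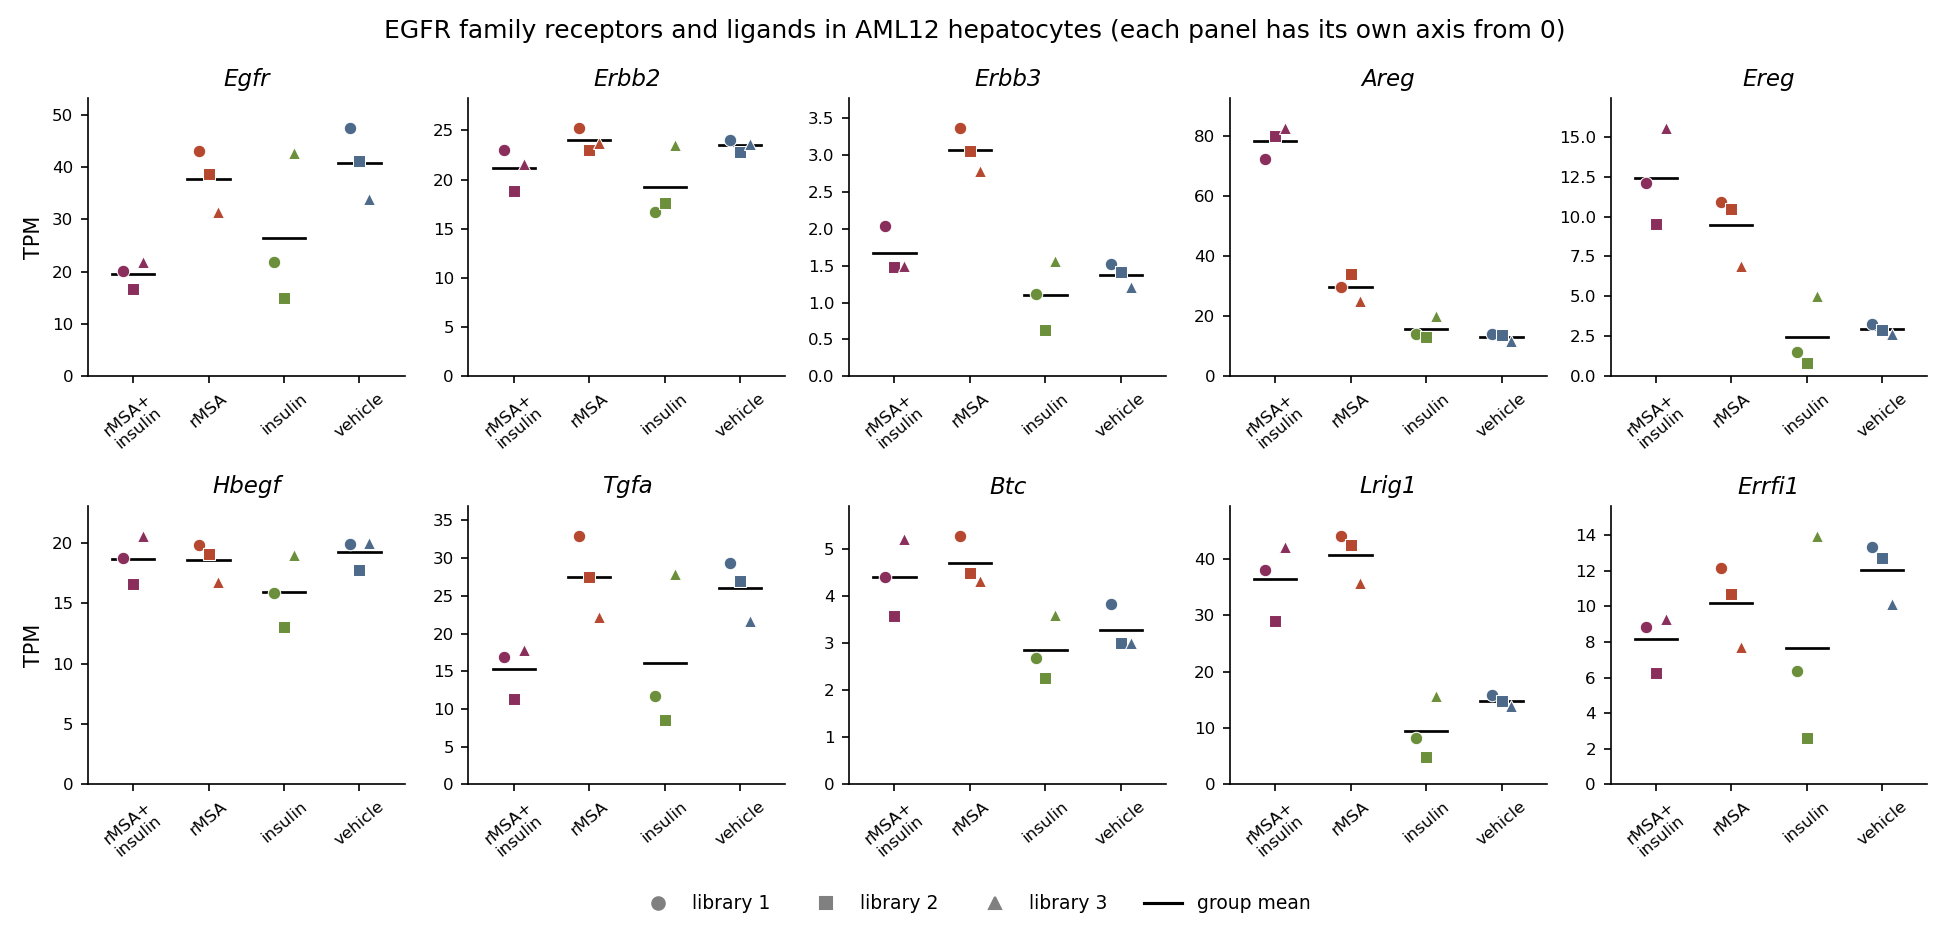
TPM of the 10 genes in AML12 cells treated with rMSA and insulin, rMSA, insulin or vehicle (left to right in each panel), with 1 point per library, its shape giving the library number, and a line at the group mean, each panel on its own axis starting at 0. Areg was highest with rMSA and insulin together (72.3 to 82.8 TPM), and insulin library 3 lay above insulin libraries 1 and 2 for each of the 10 genes.

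With insulin present, rMSA raised Areg, Ereg and Lrig1. This made 3 of 10 genes, against 17.3% of all tested genes in this comparison (14.5% upward), 1575 of which rose and 296 fell (707 and 740 after median centring). The insulin group was uneven. Insulin library 3 was above insulin libraries 1 and 2 for all 10 genes, and those are the libraries with the larger share of ribosomal protein transcripts.

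Areg had 72.3, 79.9 and 82.8 TPM in cells with rMSA and insulin, against 14.2, 13.2 and 20.3 TPM in cells with insulin. The difference was a log2 fold change of 2.25 (SE 0.16, adjusted p = 1.23e-05 by limma), and no alternative brought its adjusted p above 0.00409. Ereg had 12.1, 9.53 and 15.6 TPM with rMSA and insulin, against 1.50, 0.83 and 5.00 TPM with insulin. This was a log2 fold change of 2.13 (SE 0.37, adjusted p = 0.00293 by limma). Lrig1 had 38.0, 29.0 and 42.2 TPM with rMSA and insulin, against 8.16, 4.84 and 15.6 TPM with insulin. Its log2 fold change was 1.94 (SE 0.30, adjusted p = 0.00153 by limma). For these 3 genes each library with rMSA and insulin was above each insulin library, including insulin library 3, and 25.5% of all tested genes had groups without overlap. With only these 2 groups in the fit, Areg passed while Ereg (adjusted p = 0.0637) and Lrig1 (0.0536) did not.

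The other 7 genes did not pass with insulin present. Egfr had 20.1, 16.7 and 21.8 TPM with rMSA and insulin, against 21.8, 14.9 and 42.7 TPM with insulin. The insulin libraries spanned the others, and the log2 fold change of -0.30 had a 95% confidence interval from -0.97 to 0.37 (adjusted p = 0.538 by limma). Leaving out insulin libraries 1 and 2 leaves 1 insulin library, so only effect sizes are given for that setting. Egfr was then lower with rMSA and insulin by a log2 fold change of -1.10 and Tgfa by -0.85. Median centring of the libraries gave -0.56 for Egfr (adjusted p = 0.0327 by limma). Tgfa had 16.9, 11.3 and 17.8 TPM with rMSA and insulin, against 11.8, 8.53 and 27.9 TPM with insulin, with a log2 fold change of 0.08 whose sign turned under several settings. Btc had 4.40, 3.58 and 5.21 TPM with rMSA and insulin, against 2.67, 2.25 and 3.60 TPM with insulin. It was higher by a log2 fold change of 0.50 that missed the threshold (adjusted p = 0.0647 by limma).

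Erbb3 had 2.04, 1.48 and 1.50 TPM with rMSA and insulin, against 1.11, 0.63 and 1.57 TPM with insulin. The groups overlapped, and its log2 fold change of 0.36 did not pass (adjusted p = 0.155 by limma). Erbb2, the receptor without a known ligand, had 23.0, 18.9 and 21.6 TPM with rMSA and insulin and 16.7, 17.7 and 23.5 TPM with insulin. Hbegf had 18.8, 16.6 and 20.6 TPM with rMSA and insulin and 15.9, 13.04 and 19.0 TPM with insulin. Errfi1 had 8.85, 6.28 and 9.28 TPM with rMSA and insulin and 6.35, 2.61 and 14.0 TPM with insulin. All 3 overlapped between the groups, with log2 fold changes of 0.14 for Erbb2, 0.22 for Hbegf and 0.30 for Errfi1.

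**Figure D3:**
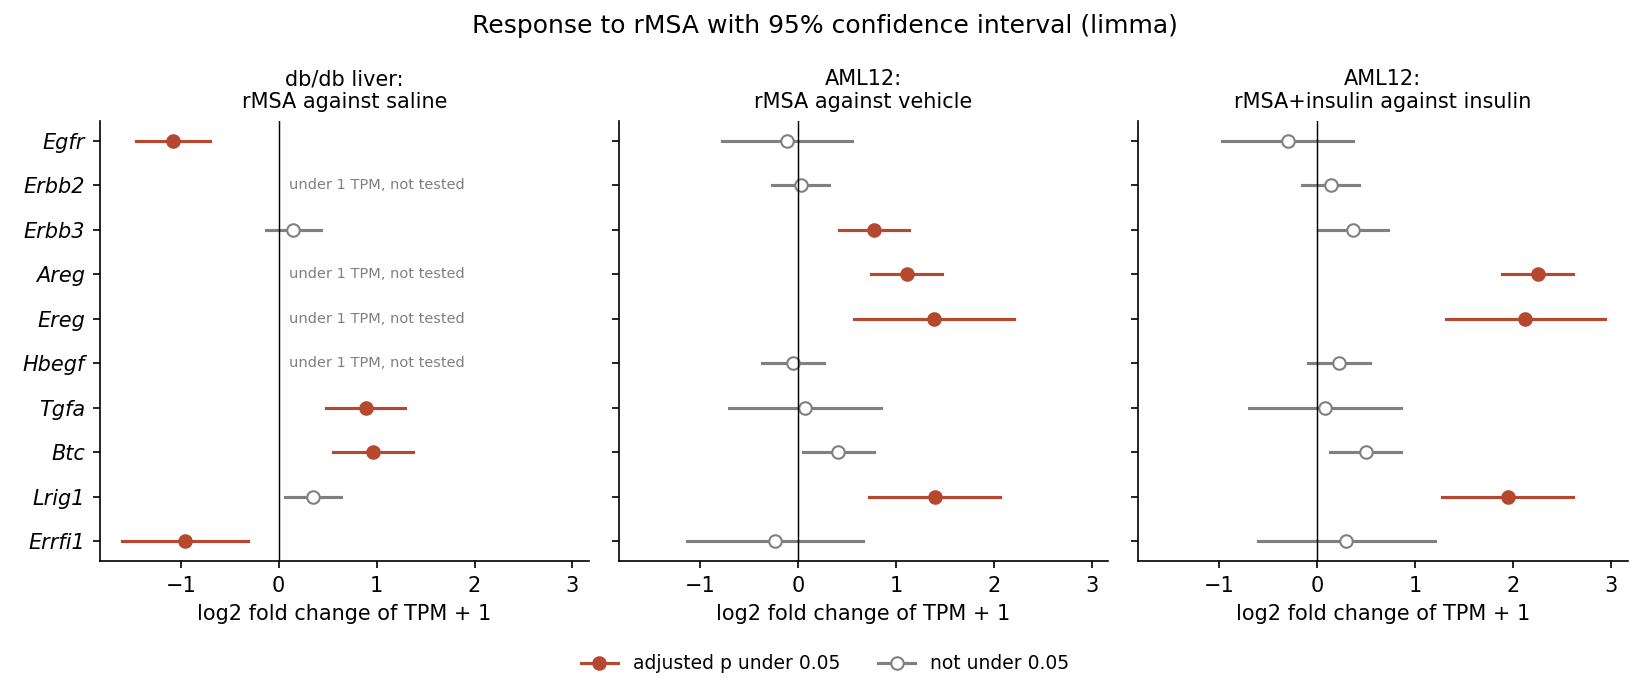
Log2 fold change of TPM + 1 (x axis) of the 10 genes for rMSA against saline in db/db liver, rMSA against vehicle in AML12 cells, and rMSA with insulin against insulin in AML12 cells, with 95% confidence intervals from limma and filled red points at an adjusted p under 0.05. Egfr fell in liver (-1.08) and was not called in AML12 cells (-0.11 and -0.30), where Areg, Ereg and Lrig1 rose in both comparisons.

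Insulin alone moved none of the 10 genes past the threshold. The count over all tested genes was 0 as well (0.00%), although 36.7% had an unadjusted p under 0.05, among them Egfr, Tgfa and Lrig1 of the family. Egfr had 21.8, 14.9 and 42.7 TPM in insulin cells, against 47.5, 41.2 and 34.0 TPM in vehicle cells, with insulin library 3 inside the vehicle range. The log2 fold change was -0.72 (SE 0.30, adjusted p = 0.135 by limma). Without insulin library 3 it was -1.12 (adjusted p = 0.00204 by limma), whereas without insulin libraries 1 and 2 it was 0.07. Without insulin library 3, 8 of the 10 genes passed, while 770 of all tested genes rose and 6635 fell. Array weights give each library a weight from its fit to its group. With them 7 of the 10 passed, while 968 of all tested genes rose and 7092 fell. Areg had 14.2, 13.2 and 20.3 TPM with insulin and 14.1, 13.7 and 11.7 TPM with vehicle, a log2 fold change of 0.23 (95% confidence interval -0.13 to 0.60, adjusted p = 0.266 by limma). These 3 vehicle libraries also served the comparison of rMSA with vehicle.

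In cells with rMSA, adding insulin raised Areg, and this was the only one of the 10 genes that passed, against 4.05% of all tested genes (2.95% upward), 319 of which rose and 119 fell (619 and 758 after median centring). Areg had 72.3, 79.9 and 82.8 TPM with rMSA and insulin, against 29.8, 34.2 and 25.1 TPM with rMSA. The log2 fold change was 1.38 (SE 0.16, adjusted p = 0.00182 by limma), and all alternatives kept it past the threshold. Egfr had 20.1, 16.7 and 21.8 TPM with rMSA and insulin, against 43.1, 38.6 and 31.4 TPM with rMSA. All libraries with insulin were lower. The groups did not overlap for 55.7% of all tested genes, and the log2 fold change of Egfr, -0.91, did not pass (SE 0.30, adjusted p = 0.109 by limma). The ribosomal protein share was 24.4 to 27.6% in cells with rMSA and insulin and 22.2 to 25.4% in cells with rMSA, and its part in the Egfr values was not tested.

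The spread among the 3 insulin libraries entered this test because all 12 libraries shared one fit. Leaving out insulin libraries 1 and 2 leaves 1 insulin library, so no p-value is given for that setting. Over all tested genes 1143 rose and 2252 fell without insulin library 2, and 1048 and 2292 without insulin library 3. In the shared fit Erbb3, with 2.04, 1.48 and 1.50 TPM against 3.37, 3.06 and 2.78 TPM, had a log2 fold change of -0.61 (adjusted p = 0.0626 by limma). Tgfa, with 16.9, 11.3 and 17.8 TPM against 33.0, 27.4 and 22.2 TPM, had one of -0.81 (adjusted p = 0.174 by limma). With only these 2 groups in the fit the 4 genes Areg, Egfr, Erbb3 and Tgfa passed. In that fit 1307 of all tested genes rose and 3333 fell.

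Whether the response to rMSA differed with insulin was tested as an interaction, in which 4 of all tested genes (0.0369%) and none of the 10 passed by limma. At an unadjusted p under 0.05 Areg was the only one of the 10, against 6.45% of all tested genes. The rise of Areg was larger with insulin by a log2 of 1.14 (95% confidence interval 0.63 to 1.66, unadjusted p = 0.000512, adjusted p = 0.264 by limma). Without insulin library 3 the adjusted p was 0.0155, and over all alternatives it ran from 0.000163 to 0.842. The difference between the 2 rises of Areg is therefore reported with its interval and not as a call.

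**Figure D4:**
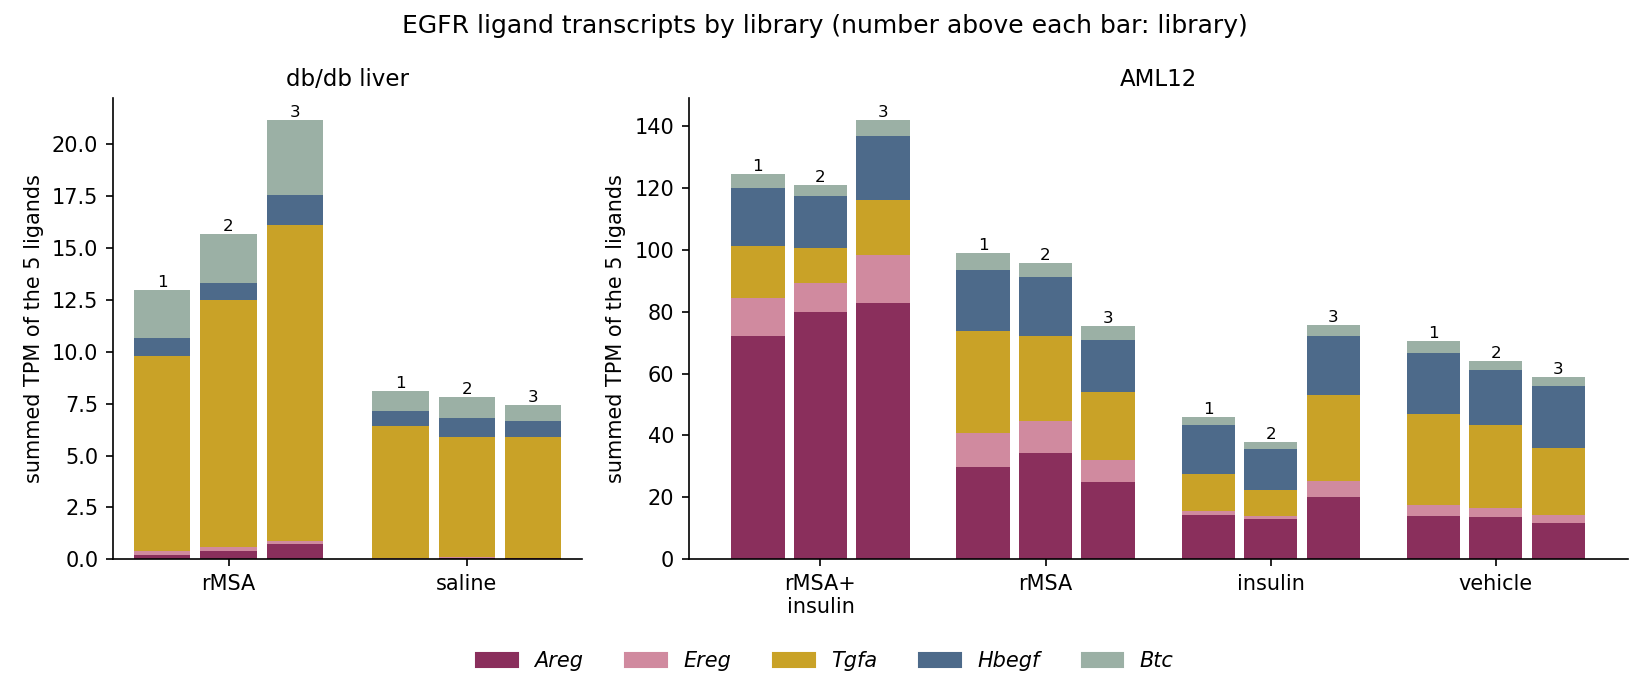
Summed TPM of the 5 EGFR ligands in each library (bar height, number above the bar giving the library), split by ligand, for db/db livers (rMSA, saline) and AML12 cells (rMSA and insulin, rMSA, insulin, vehicle), on separate axes. Areg made up 58.1 to 66.1% of the sum with rMSA and insulin and 19.8 to 21.3% with vehicle, while Tgfa made up most of the sum in livers.

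The make-up of the ligand pool in AML12 cells followed Areg. The 5 ligands came to 121 to 142 TPM with rMSA and insulin, 75.3 to 98.8 TPM with rMSA, 37.8 to 75.8 TPM with insulin and 59.0 to 70.6 TPM with vehicle. Areg made up 58.1 to 66.1% of this sum with rMSA and insulin, 30.2 to 35.7% with rMSA, 26.7 to 34.8% with insulin and 19.8 to 21.3% with vehicle. Tgfa made up 9.36 to 13.5% of it with rMSA and insulin, 28.7 to 33.3% with rMSA, 22.6 to 36.8% with insulin and 36.6 to 41.9% with vehicle. Of the 3 receptors, Egfr made up 44.5 to 48.5% of the sum with rMSA and insulin, 54.3 to 60.1% with rMSA, 45.0 to 63.0% with insulin and 57.7 to 65.0% with vehicle.

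The order of mean levels over the 4 AML12 groups differed between the genes. Areg was highest with rMSA and insulin, then with rMSA, and both steps were clear of overlap, while insulin and vehicle overlapped. Ereg and Lrig1 had a high pair of groups with rMSA and a low pair without it, and within each pair the libraries overlapped. Erbb3 was highest with rMSA, and the other 3 groups overlapped with their neighbours. For Egfr, from vehicle through rMSA and insulin down to rMSA with insulin, each group overlapped with the next. Neighbouring groups overlapped at every step for Erbb2, Hbegf, Tgfa, Btc and Errfi1.

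Genes with patterns most like those of Egfr and Areg were sought over the 12 AML12 libraries, by the root mean square difference of centred log2(TPM + 1). For Egfr, whose own values had a root mean square of 0.54, these were Prox1, Cdh6 and Mrtfb, at differences of 0.072 to 0.074. The first principal component, the main axis along which the 12 libraries differed over all tested genes, held 68.2% of the variance. Inside each group, the higher a library stood on this axis, the lower its Egfr. The part of this axis in the likeness to Egfr was not tested. Prox1 had mean levels of 2.28 TPM with rMSA and insulin, 4.92 TPM with rMSA, 3.11 TPM with insulin and 5.34 TPM with vehicle. For Areg, with a root mean square of 0.99, they were Gm10639, Adam8 and Fam71f1, at differences of 0.29 to 0.32. Adam8, a metalloprotease of the family that sheds membrane proteins, had 7.47 TPM with rMSA and insulin, 4.32 TPM with rMSA, 1.35 TPM with insulin and 1.31 TPM with vehicle.

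Other genes of the pathway were counted in 5 lists. Among the remaining ErbB receptors and ligands, Nrg1 (neuregulin 1, a ligand of ERBB3 and ERBB4) rose in liver, to 2.68 ± 0.83 TPM in rMSA livers, against 0.17 ± 0.03 TPM in saline livers (SD, n = 3 each, log2 fold change 1.62, adjusted p = 0.00063 by limma). It reached the 1 TPM limit only through the rMSA livers. The liver count of that list (1 of 2 tested) is therefore not read as a result. Without the limit the adjusted p of Nrg1 was 0.00103 by limma. Nrg4, a neuregulin best known from brown fat, was at 24.5 TPM with rMSA and 23.7 TPM with saline and did not pass. In AML12 cells only Nrg1 was tested. It had 44.9 TPM with rMSA and 61.7 TPM with vehicle (adjusted p = 0.0657 by limma).

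Among the 9 sheddases and their iRhom partners, 1 of 6 tested rose in liver and 1 fell, against 21.8% and 8.38% of all tested genes. Rhbdf1 (iRhom1) rose to 11.5 ± 2.05 TPM in rMSA livers, against 5.54 ± 0.25 TPM in saline livers, and Rhbdf2 (iRhom2), which helps ADAM17 to mature, fell to 10.5 ± 0.68 TPM, against 14.6 ± 1.86 TPM with saline (SD, n = 3 each, adjusted p = 0.00315 and 0.0400 by limma). The call of Rhbdf2 was lost in 5 of the 6 settings that left out 1 liver. In AML12 cells 2 of 8 rose with rMSA alone, against 5.90% of all tested genes, and 3 of 8 with insulin present, against 14.5%, and none fell. Adam8 rose by a log2 fold change of 1.20 with rMSA alone and 1.85 with insulin present (SE 0.12, adjusted p = 0.000116 and 4.30e-06 by limma). Adam15 rose by 0.78 and 0.88 (SE 0.09, adjusted p = 0.000362 and 0.000111 by limma). The median log2 fold change of the list was 0.19 in liver, 0.38 with rMSA alone and 0.78 with insulin present, beside 0.12, 0.06 and 0.21 for all tested genes.

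Of the 38 adaptors and kinases downstream of the receptors, 6 of 36 tested rose in liver and none fell. This was below the 21.8% of all tested genes that rose there, and the median log2 fold change was 0.06, beside 0.12 for all tested genes. Src, a kinase that acts with EGFR, rose to 6.03 ± 1.83 TPM in rMSA livers, against 1.72 ± 0.15 TPM in saline livers (log2 fold change 1.33, adjusted p = 0.00236 by limma). Stat5a rose to 8.66 ± 1.57 TPM with rMSA, against 3.94 ± 0.32 TPM with saline (SD, n = 3 each, log2 fold change 0.96, adjusted p = 0.00271 by limma). In AML12 cells 1 of 36 rose and 1 fell with rMSA alone, where 7.80% of all tested genes passed, and 2 rose and 2 fell with insulin present, where 17.3% passed, with log2 changes under 1 in size. Grb7, an adaptor that binds ERBB2, fell by 0.33 with rMSA alone and by 0.40 with insulin present (adjusted p = 0.0149 and 0.00314 by limma). Pik3r2, a regulatory subunit of PI3K, rose by 0.29 and 0.69 (adjusted p = 0.0476 and 0.000207 by limma), the smaller of which was lost under all 3 other scalings and with the replicate number as a block (adjusted p = 0.0898). Without 1 library at a time, the calls under rMSA alone held in 7 of 12 settings for Grb7 and 3 of 12 for Pik3r2. With insulin present, Grb2 rose by 0.38 (adjusted p = 0.0305 by limma) and Mapk3 (ERK1) fell by 0.25 (0.0233), and neither call held with only the 2 groups in the fit.

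Of 15 genes of receptor degradation and dephosphorylation, 1 of 15 rose in liver, none of 13 passed with rMSA alone in AML12 cells, and 3 of 13 rose with insulin present. Of all tested genes 21.8%, 5.90% and 14.5% rose in these comparisons, and the share of the list in liver was below that of all genes. Cblc, a ubiquitin ligase that acts on EGFR, rose to 25.3 ± 2.08 TPM in rMSA livers, against 12.5 ± 5.73 TPM in saline livers (SD, n = 3 each, log2 fold change 1.07, adjusted p = 0.0337 by limma), a call lost without any 1 of the rMSA livers. Without saline liver 2 its log2 fold change was 0.65. Hgs, which sorts ubiquitinated receptors for degradation, rose by 0.40 and the phosphatase Ptpn1 by 0.37 in cells with rMSA and insulin against insulin (adjusted p = 0.00519 and 0.0231 by limma). Both were lost with median centring, with adjusted p of 0.664 for Hgs and 0.642 for Ptpn1.

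**Figure D5:**
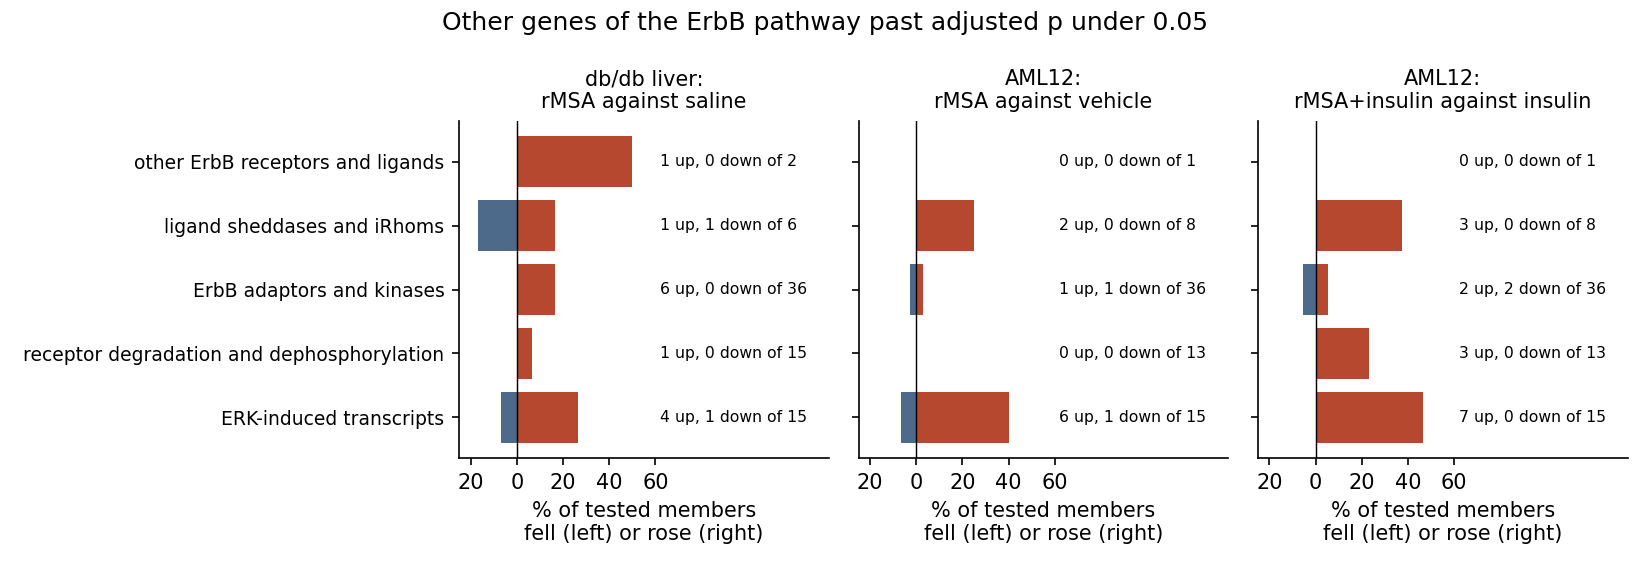
Share of the tested genes of each pathway list (rows) that rose (right, red) or fell (left, blue) at an adjusted p under 0.05 in the 3 comparisons of rMSA, with the counts written beside the bars. Transcripts induced by ERK had 4, 6 and 7 of 15 genes that rose and 1, 1 and 0 that fell. Of all tested genes 21.8%, 5.90% and 14.5% rose in these comparisons. The 1 gene that rose among other ErbB receptors and ligands in liver is Nrg1, which reached the 1 TPM limit only through the rMSA livers.

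The last list held transcripts that ERK signalling is known to induce. In liver 4 of 15 rose and 1 fell, a share near the 30.2% of all tested genes that passed there, and the median log2 fold change was 0.18, beside 0.12 for all tested genes. Ccnd1 (cyclin D1), which drives entry into the cell cycle, rose to 49.4 ± 10.1 TPM in rMSA livers, against 5.09 ± 1.40 TPM in saline livers (log2 fold change 3.06, SE 0.21, adjusted p = 4.27e-05 by limma). Dusp6, a phosphatase that switches ERK off, rose to 24.1 ± 3.68 TPM with rMSA, against 10.3 ± 2.90 TPM with saline (log2 fold change 1.16, adjusted p = 0.00289 by limma). Spry4, another feedback inhibitor, fell to 1.05 ± 0.10 TPM with rMSA, against 2.0 ± 0.31 TPM with saline (SD, n = 3 each, log2 fold change -0.54, adjusted p = 0.0291 by limma), which was lost in 5 of the 6 settings without 1 liver.

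In AML12 cells 6 of these 15 genes rose and 1 fell with rMSA alone, where 7.80% of all tested genes passed, and 7 rose and none fell with insulin present, where 17.3% passed. The median log2 fold changes of the list were 0.42 and 0.53, beside 0.06 and 0.21 for all tested genes. Ier3, an early response gene, had 526 ± 5.86 TPM in rMSA cells, against 163 ± 6.91 TPM in vehicle cells, and 794 ± 2.41 TPM with rMSA and insulin, against 153 ± 1.90 TPM with insulin (SD, n = 3 each). Its log2 fold changes were 1.69 and 2.37 (adjusted p = 5.14e-08 and 2.92e-09 by limma). Etv4, an ETS factor, rose to 59.3 ± 2.68 TPM in rMSA cells, against 18.2 ± 1.33 TPM in vehicle cells, and to 47.7 ± 3.16 TPM with rMSA and insulin, against 25.3 ± 2.54 TPM with insulin (SD, n = 3 each, adjusted p = 5.62e-06 and 0.000209 by limma). Fosl1, a component of AP-1, rose to 20.6 ± 2.72 TPM in rMSA cells, against 3.75 ± 0.23 TPM in vehicle cells, and to 54.6 ± 5.71 TPM with rMSA and insulin, against 3.71 ± 0.99 TPM with insulin (SD, n = 3 each, adjusted p = 2.10e-05 and 5.48e-07 by limma). Egr1, an immediate early gene, fell with rMSA alone to 1.28 ± 0.15 TPM, against 5.02 ± 0.96 TPM with vehicle (SD, n = 3 each, log2 fold change -1.39, adjusted p = 0.0201 by limma). Leaving out vehicle library 1 or 2 or any 1 of the rMSA libraries ended that call, with adjusted p up to 0.0899.

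No gene of the 5 lists passed for insulin against vehicle. With rMSA present, insulin raised 5 of them and lowered none, where 2.95% of all tested genes rose. These were Adam8 (log2 fold change 0.68), Pik3r2 (0.36), Hgs (0.38), Ier3 (0.59) and Fosl1 (1.37), with adjusted p of 0.0135, 0.0342, 0.0254, 0.000827 and 0.00182 by limma. They were 1 of 8 tested sheddases and iRhoms, 1 of 36 adaptors and kinases, 1 of 13 degradation genes and 2 of 15 ERK-induced transcripts. Without 1 library at a time the count ran from 2 to 33, while 1143 of all tested genes rose and 2252 fell without insulin library 2. Of these 12 settings, Ier3 and Fosl1 passed in 12, Adam8 in 8, and Hgs and Pik3r2 in 3 each. Ier3 was also the only gene of the lists that passed in the interaction, being raised more with insulin by a log2 of 0.68 (adjusted p = 0.0214 by limma). That call was kept in only 3 of the 12 settings that left out 1 library, with adjusted p up to 0.145 by limma. It was also lost under median centring (0.95) and with the replicate number as a block (0.0515).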

How the data were processed

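Liver libraries (6) and AML12 libraries (12) were analysed from the TPM values deposited by the authors, who sequenced on BGISEQ-500 and, per the submitters' processing notes, used Trimmomatic 0.33, STAR 2.5.2b and featureCounts of Subread 1.6.0 with GRCm38. The sources used here do not give the annotation, the strand setting or how TPM was computed. The values carry 2 decimals and no counts, so depth and counting precision are unknown.

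TPM + 1 was put on the log2 scale. Each gene that averaged 1 TPM or more in an experiment was then fitted in limma 3.58.1 under R 4.3.3 (1 mean per group, mean-variance trend, Benjamini-Hochberg adjustment within each comparison). All 12 AML12 libraries entered one fit. The scripts were tested on simulated data. Plots were drawn with matplotlib 3.10.9.

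The 10 genes and the pathway and marker lists were chosen with earlier results of these data known. From each pathway list, up to 2 genes that rose and 2 that fell with the smallest p were named in each comparison. For Egfr and Areg the 3 genes nearest in pattern were named.

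Deviations from the group mean correlated by replicate number at 0.53, 0.14 and 0.58 between rMSA and vehicle libraries. This meets a rule of over 0.1 for every pair, although the labels do not say what a number shares. For rMSA and insulin against insulin the values were 0.0954, 0.79 and 0.80, and the livers (0.05, -0.41 and -0.39) and the other comparisons did not meet the rule. Alternatives covered the pseudocount, the limit on low levels, scaling, variance model, array weights, a fold threshold, a replicate block, the groups in the fit, and leaving out libraries.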

Additional observations from a re-analysis of the deposited data

How the results depend on the processing

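Counts of the 10 genes past the threshold changed under some settings. A required absolute log2 fold change of 1 left 1 in liver, and a minimum mean of 5 TPM left 2 for rMSA against vehicle. For rMSA with insulin against insulin the count was 9 with array weights and 1 with only those groups in the fit. Over all tested genes 6122 rose and 1059 fell with array weights, and 289 and 42 with only those groups. For insulin against vehicle the count was 1 after quantile normalization and 7 with array weights, where 968 of all tested genes rose and 7092 fell. For rMSA with insulin against rMSA it was 2 with 5 TPM added and 3 after median centring. It was 4 after quantile normalization, with array weights and with only those groups in the fit. Over all tested genes 1048 rose and 870 fell after quantile normalization, 2227 and 5165 with array weights, and 1307 and 3333 with only those groups. The interaction gave 5 with array weights, where 3194 of all tested genes passed upward and 408 downward. Without 1 library at a time the counts ran from 3 to 4 in liver, 1 to 4 for rMSA against vehicle, 3 to 8 for rMSA with insulin against insulin, 0 to 8 for insulin against vehicle, 1 to 4 for rMSA with insulin against rMSA and 0 to 1 for the interaction. The count of 8 in both insulin comparisons came without insulin library 3. In that setting 5311 of all tested genes rose and 528 fell for rMSA with insulin against insulin. For insulin against vehicle 770 rose and 6635 fell.

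With the replicate number as a block the counts were 4 in liver, 3 for rMSA against vehicle, 3 for rMSA with insulin against insulin, 0 for insulin against vehicle, 1 for rMSA with insulin against rMSA and 0 for the interaction. The replicate block changed no call of the 10 genes other than that of Ereg under rMSA alone. It left 9 of 15 pathway genes in liver, where the numbers do not pair the mice.

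The pathway genes that passed, 15 in liver, 11 for rMSA against vehicle, 17 for rMSA with insulin against insulin, 0 for insulin against vehicle and 5 for rMSA with insulin against rMSA, moved as well. The 15 in liver include Nrg1, which reached the 1 TPM limit only through the rMSA livers. The fold threshold left 5, 7 and 6 for the responses to rMSA and 1 for rMSA with insulin against rMSA. For rMSA against vehicle the count was 6 with a minimum of 5 TPM, 35 with array weights, 19 without insulin libraries 1 and 2 and 24 with only those groups. For rMSA with insulin against insulin it was 49 with array weights, 31 without insulin libraries 1 and 2 and 9 with only those groups. For insulin against vehicle it was 67 with array weights, where 968 of all tested genes rose and 7092 fell. For rMSA with insulin against rMSA it was 18 after median centring, 19 after quantile normalization, 62 with array weights, 51 without insulin libraries 1 and 2 and 47 with only those groups. Without 1 library at a time these counts ran from 8 to 13 in liver and 8 to 15 for rMSA against vehicle. They ran from 13 to 46 for rMSA with insulin against insulin and 0 to 59 for insulin against vehicle. For rMSA with insulin against rMSA they ran from 2 to 33. With array weights 3294 of all tested genes rose and 1393 fell for rMSA against vehicle. The numbers were 6122 and 1059 for rMSA with insulin against insulin and 2227 and 5165 for rMSA with insulin against rMSA. With only the groups compared, 1837 rose and 802 fell for rMSA against vehicle, and 289 and 42 for rMSA with insulin against insulin. Larger pathway counts in such settings are not read as specific to the pathway.

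Directions turned only for genes that had not passed. For rMSA against vehicle, Erbb2 was at -0.0371 after median centring, -0.0455 after quantile normalization and -0.0246 rescaled without the 50 highest genes, and Hbegf was at 0.0249 with array weights. For rMSA with insulin against insulin, Erbb2 was at -0.118, Hbegf at -0.0332 and Tgfa at -0.177 after median centring, and at -0.0917, -0.0207 and -0.191 after quantile normalization, with Tgfa at -0.0048 in the rescaled values. Without insulin libraries 1 and 2 the values were -0.152 for Erbb2, -0.0305 for Hbegf, -0.849 for Tgfa and -0.728 for Errfi1, and for insulin against vehicle Egfr was at 0.0727. Without 1 library at a time, the log2 fold changes for rMSA against vehicle ran from -0.237 to 0.0092 for Egfr, -0.0071 to 0.0563 for Erbb2, -0.101 to 0.0195 for Hbegf and -0.0606 to 0.214 for Tgfa. Those for rMSA with insulin against insulin ran from -0.629 to 0.098 for Egfr, -0.259 to 0.542 for Tgfa and -0.215 to 0.810 for Errfi1. The causes were not tested.

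Median centring shifted the median log2 fold change of all tested genes to -0.02 in liver, against 0.12 in the values as deposited, to -0.04 against 0.21 for rMSA with insulin against insulin, to 0.10 against -0.30 for insulin against vehicle, and to 0.05 against -0.15 for rMSA with insulin against rMSA. Groups of 3, a depth that is unknown, and an insulin group of uneven libraries limit what these comparisons can show. Genes that averaged under 1 TPM in liver were left out of the main test, and their values without that limit are not read as calls.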
